A study of Mus musculus with 10 samples.

Results

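The D-type cyclins Ccnd1, Ccnd2 and Ccnd3, the E-type cyclins Ccne1 and Ccne2, the kinases Cdk2, Cdk4 and Cdk6, the retinoblastoma gene Rb1 and the transcription factor gene E2f1 were followed in supporting cells of the mouse utricle that had been exposed to TRULI, a small-molecule inhibitor of the Lats kinases. They were chosen by symbol for their place in the G1/S machinery, by a rule that uses no measured value but with earlier results of these data known, and all 10 were found among the 48709 genes of every deposited table. Utricles were explanted from Lfng-EGFP mice at P21 and cultured for 5 d with 10 μM TRULI in 0.1% DMSO or with 0.1% DMSO alone. For the withdrawal groups the culture went on for a further 5 d with neither. Supporting cells were then purified by fluorescence-activated sorting on the reporter, which stands for the activity of the Lfng locus and not for cell identity itself. The sample labels give 3 TRULI and 3 DMSO libraries at 5 d and 2 of each after withdrawal. All groups shared the reporter line and the age and, by the study's general methods for utricle cultures, a growth medium with epidermal and fibroblast growth factors, both of them mitogens. The number of animals behind a library was not given in the sources used here.

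The condition in the sample label and the condition in the name of the deposited table differ for 4 of the 10 libraries, and each comparison is therefore given under both. Replicates 1 and 2 of TRULI at 5 d, by their labels, carry table names of DMSO withdrawal and are called here the labelled-TRULI, named-DMSO pair. Conversely, replicates 1 and 2 of labelled DMSO withdrawal carry table names of TRULI at 5 d and are called the labelled-DMSO, named-TRULI pair. Label and name give the same condition for the 3 DMSO libraries at 5 d, for 1 TRULI library at 5 d, called here the undisputed TRULI library, and for the 2 libraries after TRULI withdrawal. Groups by label are the main comparison, although the rule for this gene set takes the condition from the deposited name. The study reports cell-cycle genes as raised by TRULI and indistinguishable from control after withdrawal. The counts that follow are edgeR calls on another list of genes and are not the study's tests. By name, 10 of 23 E2F-regulated genes tested rose at 5 d, against 2.09% of all genes. After withdrawal by name 0 of 16 were called, against 0% of all genes. By label, 0 of 17 were called at 5 d, against 0.00945% of all genes higher and 0% lower. After withdrawal by label 5 of 24 fell, against 1.06%. The nonzero counts changed when single libraries were left out. The 0 at 5 d by label became 2 higher without the undisputed TRULI library, against 10.5% of all genes. Which of the assignments is right was not tested, because no value of a library was used to assign it.

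In a resting cell the pocket protein encoded by Rb1 holds E2F transcription factors in check. Mitogens, and Yap in many tissues, raise D-type cyclins, which activate Cdk4 and Cdk6 and start the phosphorylation of Rb, and the E2F factors so released raise their own targets, among them the E-type cyclins that drive Cdk2 into S phase. Supporting cells of the adult mammalian utricle are almost all out of the cell cycle, and their return to it is a step that regeneration of hair cells is thought to need.

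All are protein-coding genes, placed here on GRCm38 by the GENCODE M21 annotation. Ccnd1 spans chr7:144929931-144939925 on the minus strand, Ccnd2 chr6:127125162-127152193 on the minus strand and Ccnd3 chr17:47505051-47599691 on the plus strand. Their kinases are Cdk4 at chr10:127063534-127067920 and Cdk6 at chr5:3341485-3531008, both on the plus strand. Ccne1 spans chr7:38097984-38107534 on the minus strand, Ccne2 chr4:11191351-11204779 on the plus strand and Cdk2 chr10:128697939-128705031 on the minus strand. Rb1 covers chr14:73183673-73325822 and E2f1 chr2:154559407-154569892, both on the minus strand.

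Upstream sequence is shown for Cdk4 and Ccnd3, because their levels moved together over the 10 libraries and RefSeq promoter windows of GRCm38.p6 were at hand for them. Windows were found for 6 of the 10 genes, 7 windows in all, and each was searched on both strands over the 250 bases before its transcription start. The first sequence is chr10:127063285-127063533 on the plus strand and the others are chr17:47504801-47505050 and chr17:47593217-47593435 on the plus strand, which lie before the distal and the proximal start of Ccnd3. Only bases outside annotated exons are printed, and capitals mark the E-box CACGTG, the sequence read by Myc and related factors.
Cdk4: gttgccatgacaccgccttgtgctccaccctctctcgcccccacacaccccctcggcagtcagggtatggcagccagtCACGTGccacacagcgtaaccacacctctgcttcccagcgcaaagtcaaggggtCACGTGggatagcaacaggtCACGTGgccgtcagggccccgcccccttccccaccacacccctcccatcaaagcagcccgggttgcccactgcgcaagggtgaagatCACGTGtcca
Ccnd3 distal: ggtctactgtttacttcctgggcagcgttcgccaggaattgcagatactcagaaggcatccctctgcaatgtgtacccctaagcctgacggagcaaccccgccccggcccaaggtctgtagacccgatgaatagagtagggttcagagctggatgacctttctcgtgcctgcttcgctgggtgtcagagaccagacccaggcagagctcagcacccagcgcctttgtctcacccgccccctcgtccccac
Ccnd3 proximal: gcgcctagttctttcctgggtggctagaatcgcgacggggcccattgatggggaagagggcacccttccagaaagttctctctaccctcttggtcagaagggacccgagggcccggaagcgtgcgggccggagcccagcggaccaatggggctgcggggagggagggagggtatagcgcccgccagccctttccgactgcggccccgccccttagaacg

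The Cdk4 window holds 4 E-boxes, whose first bases lie 172, 118, 98 and 11 bases before the start. Of 32851 promoter windows searched, 6.02% held at least 1 E-box and 0.0213% held 4 or more. Cdk6 has 1 E-box, 220 bases before its start. The E2F letters TTTCCCGC, TTTCGCGC, TTTGCCGC and TTTGGCGC, present in 1.86% of windows, matched once in Cdk2, 140 bases before the start. The letters GGAATG, which TEAD factors bind and which 12.6% of windows hold, matched once in the proximal Ccnd3 window, 17 bases before the start and so within an annotated exon. The windows of Ccne1 and E2f1 and the distal window of Ccnd3 held none of these letters. The E2f1 window, chr2:154569427-154569676, and the Cdk6 window, chr5:3343643-3343892, lie wholly within the GENCODE spans given above. They stand before RefSeq starts inside those spans, and the bases before the annotated 5′ ends of these genes were not searched. A match of letters is a description and not a binding site, and the absence of a match says nothing about a factor.

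The deposited tables sum to 2463872 to 6255149 expected counts a library, and no pair of libraries agreed within sampling noise. A level of 3 counts, taken as the floor, lies between 0.479 and 1.16 CPM, which are counts scaled to the size of the library, and the floor covers counting error only. Transcripts of the mitochondrial genome took 14.2% to 28.2% of the counts in 6 libraries and 2.09% to 3.52% in the other 4, which are the labelled-TRULI, named-DMSO pair and the 2 libraries after TRULI withdrawal. The split lies inside the labelled TRULI group at 5 d. After withdrawal it coincides with the labelled groups, so that there the share and the treatment cannot be told apart. With groups by name it coincides with the time in culture. All libraries at 5 d by name have the high share and all withdrawal libraries by name the low share. TRULI withdrawn and TRULI at 5 d differ by 5 further days of culture under both groupings. By name the share, the withdrawal and those days cannot be told apart there. With groups by name, both comparisons of TRULI with DMSO lie within 1 side of the split.

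The sorted cells carried supporting-cell transcripts throughout. From 11 to 12 of 12 markers were detected in every library, with Sox9 at 472 to 928 CPM and Otog at 2145 to 9964 CPM, and Hes5 was at 0 in 3 libraries. The summed level of these markers was 8801 to 14216 CPM in the DMSO libraries at 5 d, 3897 and 6823 in the labelled-TRULI, named-DMSO pair, 8435 in the undisputed TRULI library, 6611 and 8625 in the labelled-DMSO, named-TRULI pair and 4864 and 6198 after TRULI withdrawal. The 12 hair-cell markers summed to 320 to 536 CPM in DMSO at 5 d, 351 and 354 in the first pair, 1082 in the undisputed TRULI library, 382 and 787 in the second pair and 437 and 1315 after TRULI withdrawal. Markers of mesenchyme summed to 18.5 to 131 CPM over the libraries, of Schwann cells to 22.4 to 126 and of macrophages to 0.907 to 18.6. Those of melanocytes summed to 0.366 to 14.3 CPM and of endothelium to at most 3.08. C1qa, C1qb, C1qc and Cx3cr1 of macrophages, Tyr, Mlana and Tyrp1 of melanocytes and Cldn5 of endothelium were at 0 in all 10 libraries. The part of these shares and sums in the results was not tested.

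The D-type cyclins did not move as a group. Ccnd1, which is a textbook target of mitogens and of Yap, had the largest ratio of highest to lowest CPM among the 10 genes. Its level was 30.9, 91.6 and 147 CPM in the DMSO libraries at 5 d and 418 CPM in the undisputed TRULI library. The labelled-TRULI, named-DMSO pair had 56.3 and 62.3 CPM and the labelled-DMSO, named-TRULI pair 729 and 999 CPM. After TRULI withdrawal it was 257 and 102 CPM. The undisputed TRULI library and the labelled-DMSO, named-TRULI pair therefore lay above every other library, and the labelled-TRULI, named-DMSO pair lay within the range of the DMSO libraries at 5 d.

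**Figure D1:**
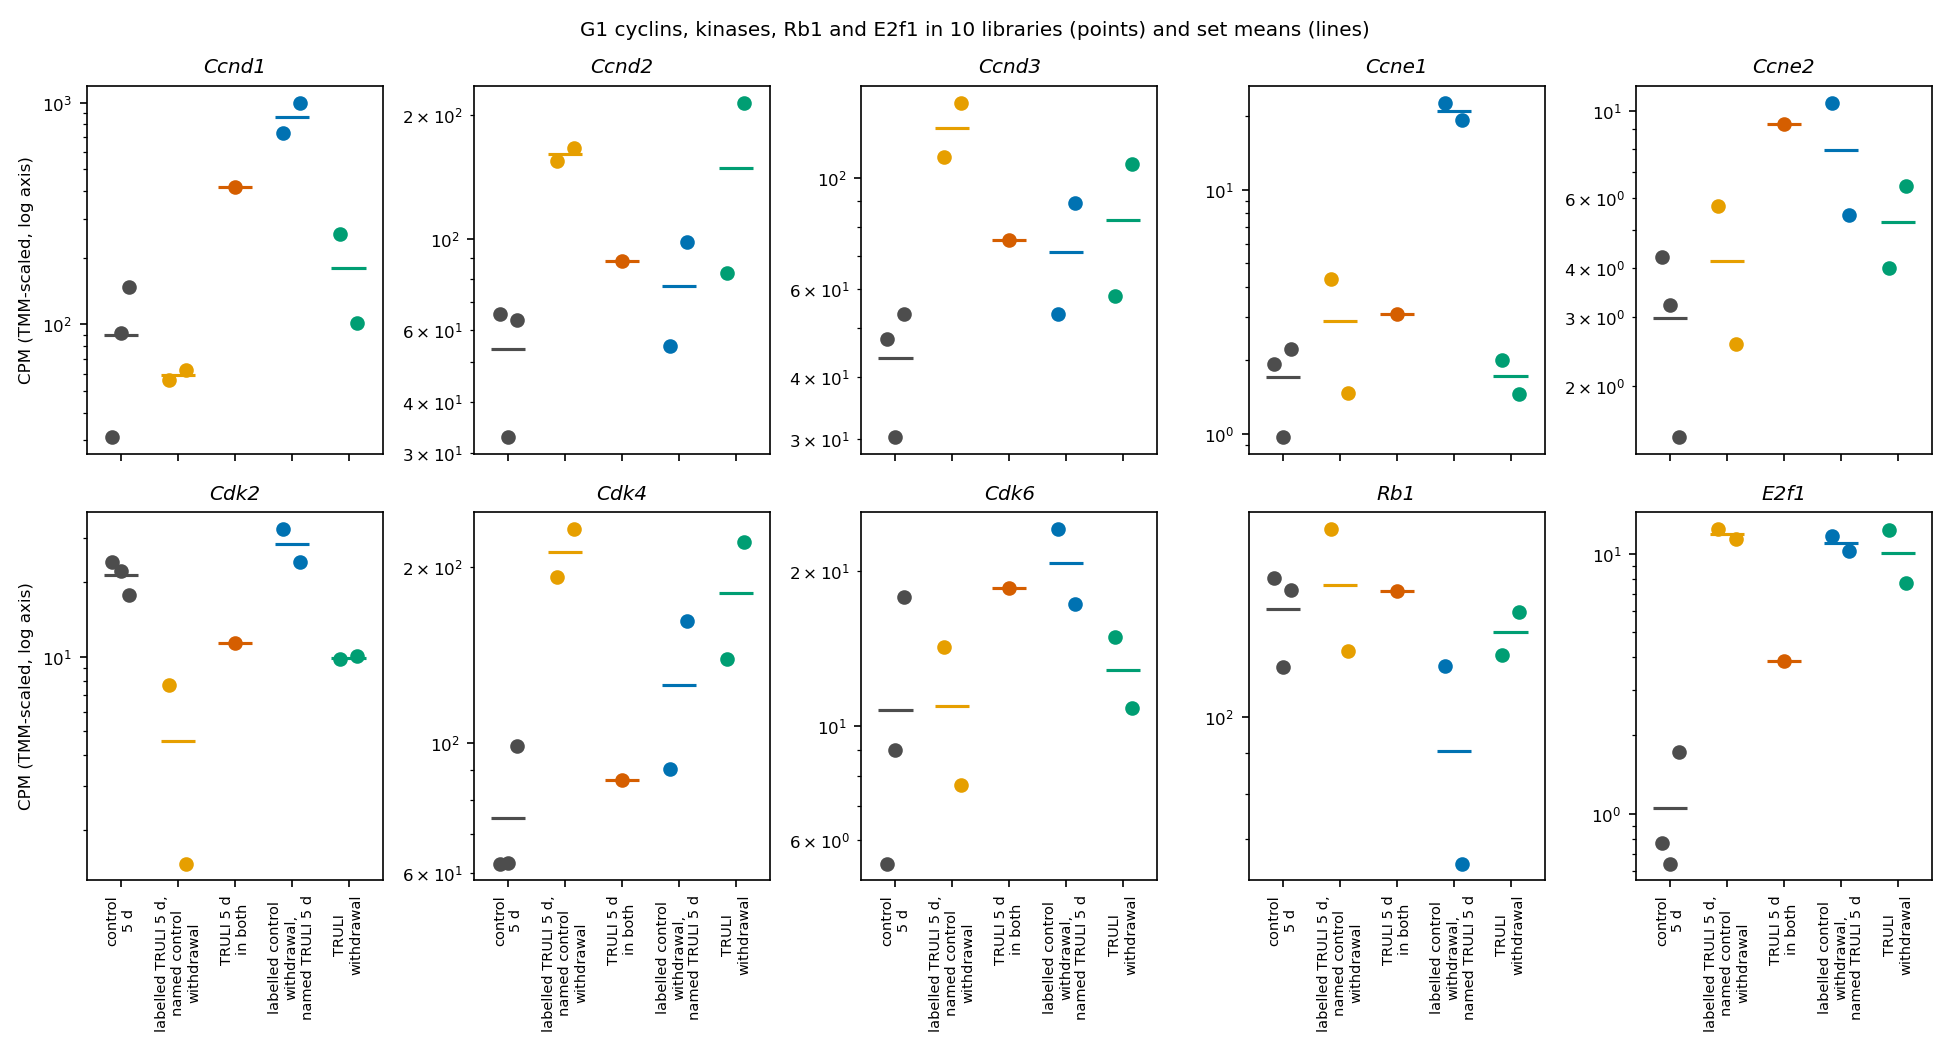
Level of each of the 10 genes in CPM on a log axis, 1 panel a gene. Points are libraries, in 5 sets by sample label and deposited name (named stands for the name of the deposited table), and lines are the means of each set. Ccnd1 and Ccne1 stand highest in the labelled-DMSO, named-TRULI pair, and E2f1 is lowest in the 3 DMSO libraries at 5 d.

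By label, Ccnd1 at 5 d was 179 ± 207 CPM with TRULI and 90 ± 58.3 with DMSO (SD, n = 3 each), and the groups overlapped. The log2 fold change was 1.01 ± 0.83 (SE), with an adjusted p of 0.576 (edgeR, quasi-likelihood fit, Benjamini-Hochberg over all genes tested). By name the TRULI group was 715 ± 291 CPM (SD, n = 3) and lay wholly above the controls. The log2 fold change was then 3.01 ± 0.50 (SE) and Ccnd1 rose 8.03-fold (edgeR, adjusted p = 0.0109). Without DMSO replicate 2 the adjusted p was 0.0873 with a log2 fold change of 3.01. With the fit limited to the undisputed TRULI library and the 3 DMSO libraries, which all lie on the side of high mitochondrial share, the log2 fold change was 2.22 and the adjusted p 0.0947, the lone library being taken to vary like the controls. In bulk libraries of this kind, fewer cells that carry a transcript and less of it in each cell cannot be told apart.

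After withdrawal the direction of the Ccnd1 difference depended on the grouping. By label it was 179 ± 110 CPM after TRULI against 864 ± 191 after DMSO (SD, n = 2 each) and the groups did not overlap. The log2 fold change was −2.33 ± 0.49 (SE), just short of the threshold (edgeR, adjusted p = 0.0561). With the replicate number as a block it passed (−2.46, adjusted p = 0.00324), as it did in DESeq2 (adjusted p = 7.02e-05). By name the DMSO group was 59.3 ± 4.22 CPM (SD, n = 2), and TRULI lay above it with a log2 fold change of 1.59 ± 0.53 (SE) that did not pass (edgeR, adjusted p = 0.923). From TRULI at 5 d to TRULI withdrawn, Ccnd1 differed by −0.06 ± 0.91 by label (edgeR, adjusted p = 0.999) and fell by 2.04 ± 0.51 on the log2 scale by name (edgeR, adjusted p = 0.0357). That last call was lost without any 1 of the 3 TRULI libraries at 5 d (edgeR, adjusted p = 0.0561, 0.109 and 0.0879 without name replicates 1, 2 and 3). It was also lost without TRULI withdrawal replicate 2 (adjusted p = 0.0735). The fit without name replicate 1 holds the same libraries as the withdrawal comparison by label and is the same test.

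Ccnd2, the D cyclin best known from neural and ovarian progenitors, had 65.7, 32.8 and 63.5 CPM in the DMSO libraries at 5 d and 88.4 CPM in the undisputed TRULI library. It had 155 and 166 CPM in the labelled-TRULI, named-DMSO pair and 54.9 and 98.2 CPM in the labelled-DMSO, named-TRULI pair. After TRULI withdrawal it was 82.7 and 214.6 CPM. The labelled-TRULI, named-DMSO pair was thus high in Ccnd2 where it was low in Ccnd1.

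Ccnd3, the D cyclin most often found in differentiated tissues, had 47.5, 30.2 and 53.4 CPM in DMSO at 5 d and 75.3 CPM in the undisputed TRULI library. The levels were 110.3 and 142 CPM in the labelled-TRULI, named-DMSO pair, 53.5 and 89.1 in the labelled-DMSO, named-TRULI pair and 58.1 and 107 after TRULI withdrawal. Every library other than the DMSO libraries at 5 d had more Ccnd3 than these had, the lowest of them at 53.5 against 53.4 CPM. Ccnd2 and Ccnd3 rose and fell together over the libraries, with a Pearson r of 0.95 of log2 CPM over 10 libraries, which share conditions, depth and mitochondrial share.

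Neither gene passed the test in any comparison. By label both were separated at 5 d, with log2 fold changes of 1.31 ± 0.40 for Ccnd2 and 1.29 ± 0.37 for Ccnd3 (SE, edgeR, adjusted p = 0.323 for each). By name the differences at 5 d were 0.59 ± 0.31 for Ccnd2, whose groups overlapped, and 0.74 ± 0.27 for Ccnd3, whose groups did not (edgeR, adjusted p = 0.389 and 0.202). After withdrawal Ccnd2 differed by 0.90 ± 0.53 by label and by −0.12 ± 0.50 by name, and Ccnd3 by 0.16 ± 0.46 and by −0.62 ± 0.47 (edgeR, adjusted p from 0.327 to 0.9998). Between TRULI withdrawn and TRULI at 5 d, Ccnd2 differed by 0.10 ± 0.55 by label and 0.84 ± 0.44 by name, and Ccnd3 by −0.43 ± 0.51 and 0.14 ± 0.37 (edgeR, adjusted p from 0.210 to 0.999). The 4 libraries of low mitochondrial share held 82.7 to 214.6 CPM of Ccnd2 against 32.8 to 98.2 in the other 6, and 58.1 to 142 CPM of Ccnd3 against 30.2 to 89.1, and their part in these differences was not tested.

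Levels were compared between genes per length, as FPKM. Cdk4 stood at the top, with a median of 147 FPKM over the 10 libraries, followed by Ccnd3 at 51.3, Ccnd1 at 43.9, Rb1 at 41.3, Ccnd2 at 33.4 and Cdk2 at 9.10. E2f1 at 3.58 FPKM, Ccne2 at 2.20, Ccne1 at 1.72 and Cdk6 at 1.36 were lowest. The ranges of all neighbours in this order overlapped, and the rank of Ccnd1 ran from 1 to 6 and that of Ccnd2 from 2 to 7. The makeup of the D-type cyclin pool differed between the library sets. Ccnd1 made up 14.9% to 47.1% of the summed D-cyclin FPKM in the DMSO libraries at 5 d and 66.9% in the undisputed TRULI library. It made up 8.43% and 10.96% in the labelled-TRULI, named-DMSO pair and 78.1% and 83.01% in the labelled-DMSO, named-TRULI pair. After TRULI withdrawal its share was 12.4% and 48.9%. The total pool was 70.6 to 118 FPKM in DMSO at 5 d, 153 and 194 in the first pair, 247 in the undisputed TRULI library, 367 and 452 in the second pair and 159 and 225 after TRULI withdrawal. All libraries other than DMSO at 5 d thus held a larger pool, in which Ccnd2 and Ccnd3 made up the larger part of the labelled-TRULI, named-DMSO pair and Ccnd1 that of the labelled-DMSO, named-TRULI pair. With 1 length per gene for all libraries, an alternative chosen after the data were seen, the mean Ccnd1 shares of the pairs were 11.9% and 79.1%.

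**Figure D2:**
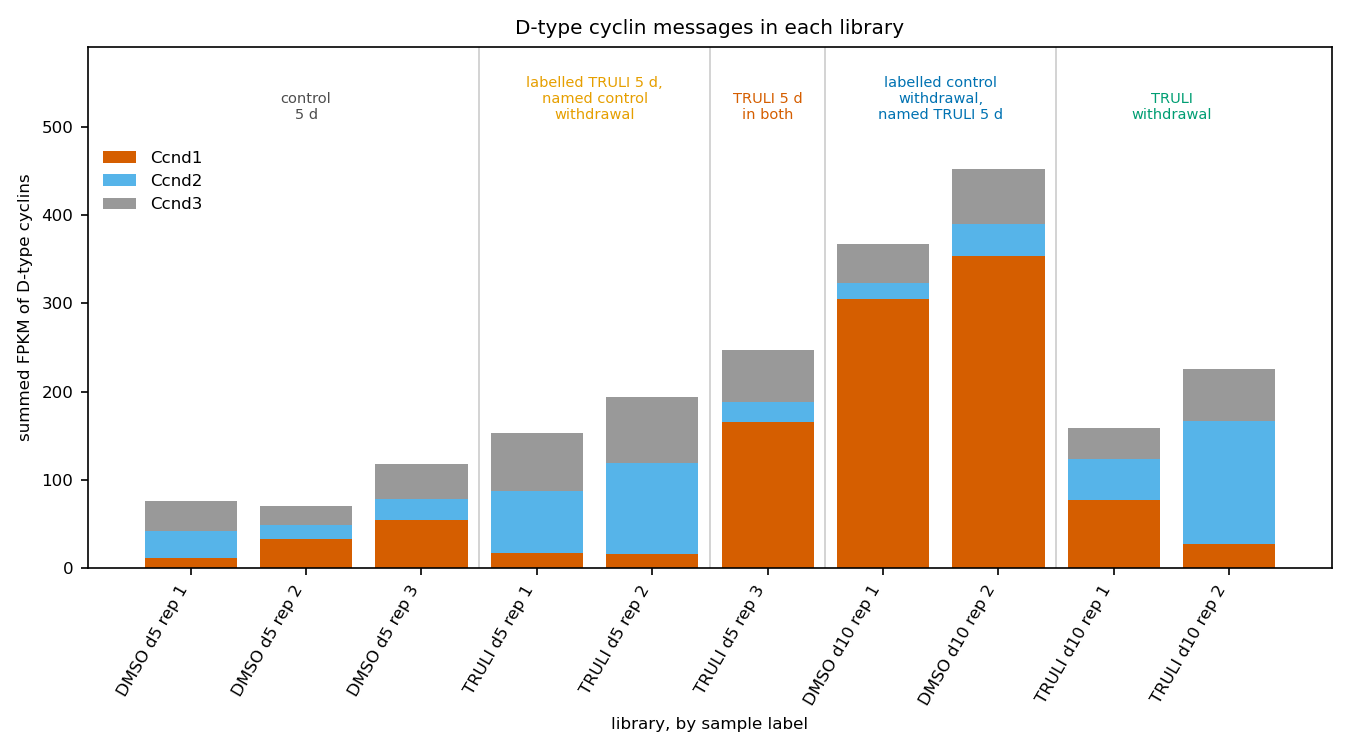
Summed FPKM of the D-type cyclins in each of the 10 libraries, stacked by gene, with libraries named by sample label and grouped by label and deposited name. Ccnd1 fills most of the bar in the undisputed TRULI library (66.9%) and in the labelled-DMSO, named-TRULI pair (78.1% and 83.01%), and little of it in the labelled-TRULI, named-DMSO pair.

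Cdk4 was by far the more abundant of the kinases that D-type cyclins bind. It made up 97.7% to 99.7% of the summed FPKM of Cdk4 and Cdk6 in every library, and it ranked first or second among the 10 genes in each, at 52.4 to 222 FPKM. Its level was 62.2, 62.4 and 98.8 CPM in DMSO at 5 d and 86.4 CPM in the undisputed TRULI library. It was 192 and 233 CPM in the labelled-TRULI, named-DMSO pair, 90.2 and 162 in the labelled-DMSO, named-TRULI pair and 139.5 and 221 after TRULI withdrawal. The undisputed TRULI library lay within the range of the DMSO libraries, and the highest values were in libraries of low mitochondrial share, which held 139.5 to 233 CPM against 62.2 to 162 in the other 6. Cdk4 followed Ccnd2 and Ccnd3 over the libraries, with Pearson r of 0.90 with each.

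Cdk6, the other kinase partner of the D cyclins, had 5.41, 9.001 and 17.8 CPM in DMSO at 5 d, 18.5 in the undisputed TRULI library, 14.2 and 7.70 in the labelled-TRULI, named-DMSO pair, 24.1 and 17.3 in the labelled-DMSO, named-TRULI pair and 14.9 and 10.8 after TRULI withdrawal. It kept closer to Ccnd1 than to the other D cyclins, with a Pearson r of 0.83 with Ccnd1 and of −0.09 and 0.03 with Ccnd2 and Ccnd3. Neither kinase was called in any comparison. At 5 d Cdk4 differed by 1.17 ± 0.42 by label and 0.61 ± 0.29 by name, and Cdk6 by 0.32 ± 0.58 and 0.90 ± 0.42, on the log2 scale (SE, edgeR, adjusted p = 0.332, 0.329, 0.810 and 0.321). After withdrawal Cdk4 differed by 0.46 ± 0.42 by label and −0.25 ± 0.41 by name and Cdk6 by −0.75 ± 0.56 and 0.22 ± 0.76 (edgeR, adjusted p from 0.438 to 0.9998). For withdrawn TRULI against TRULI at 5 d the values were 0.06 ± 0.54 and 0.64 ± 0.37 for Cdk4 and −0.11 ± 0.69 and −0.68 ± 0.44 for Cdk6 (edgeR, adjusted p from 0.262 to 0.999). The groups of Cdk6 were separated, with the lower values after TRULI withdrawal, against DMSO withdrawal by label and against TRULI at 5 d by name.

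**Figure D3:**
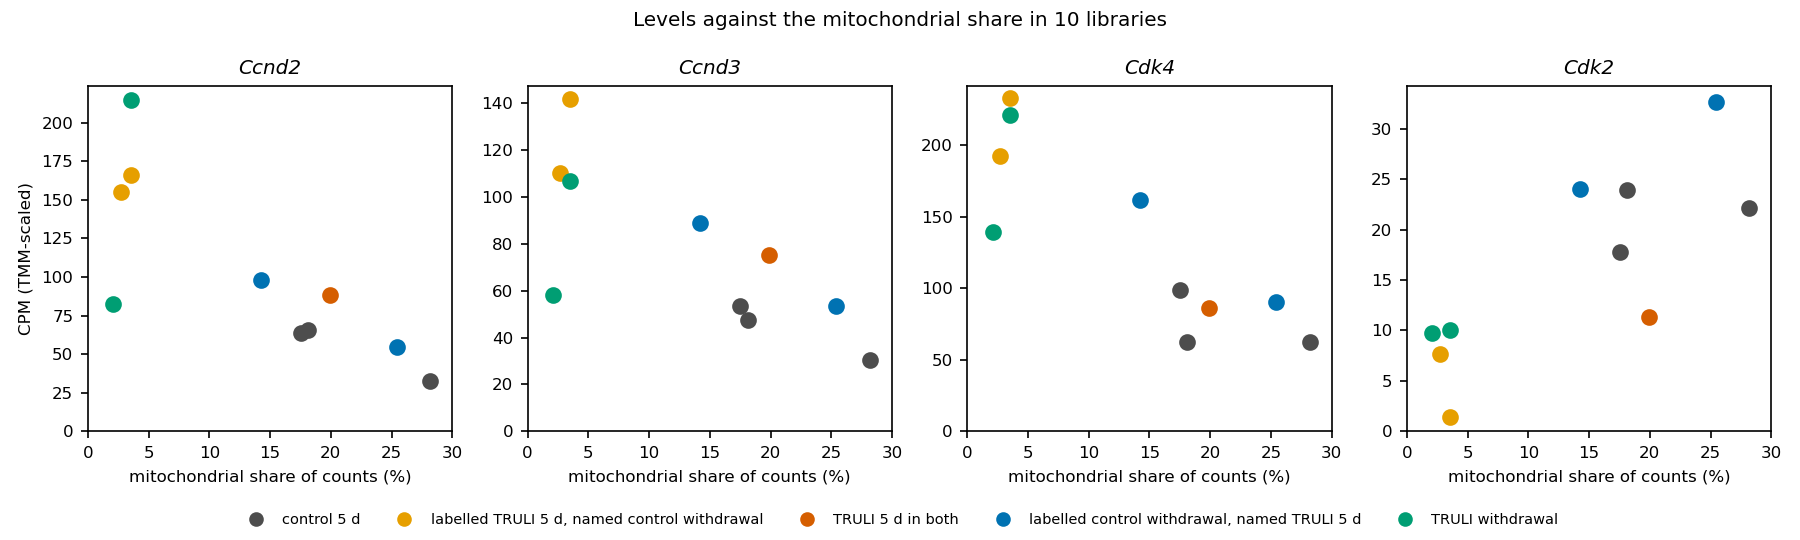
Level of Ccnd2, Ccnd3, Cdk4 and Cdk2 in CPM against the share of counts from the mitochondrial genome in percent, 1 point a library, coloured by label and deposited name. The 4 libraries at 2.09% to 3.52% hold less Cdk2 than each of the other 6, and overlap with them in the other 3 genes.

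Ccne1, the E-type cyclin that activates Cdk2 at the G1/S boundary, was near the floor in most libraries. It had 5, 3 and 9 counts in the DMSO libraries at 5 d, which is 1.93, 0.964 and 2.22 CPM, and 3.08 CPM in the undisputed TRULI library. The labelled-TRULI, named-DMSO pair had 4.31 and 1.47 CPM and the 2 libraries after TRULI withdrawal 2.00 and 1.46 CPM. The labelled-DMSO, named-TRULI pair stood apart, with 22.7 and 19.3 CPM from 95 and 85 counts. Above all other libraries, this pair was also where Ccnd1 was highest.

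By label Ccne1 did not pass the filter on low counts at 5 d. Its log2 fold change there was 0.79 in DESeq2 (adjusted p = 0.750) and 0.80 in edgeR without the filter (adjusted p = 0.755). After withdrawal Ccne1 was 1.73 ± 0.38 CPM after TRULI and 20.99 ± 2.38 after DMSO by label (SD, n = 2 each). It fell by 3.64 ± 0.68 on the log2 scale (edgeR, adjusted p = 0.0459). That call was lost without either DMSO library (adjusted p = 0.376 without replicate 1 and 0.234 without replicate 2). By name the TRULI group at 5 d was 15.02 ± 10.5 CPM (SD, n = 3), and Ccne1 rose by 3.12 ± 0.72 on the log2 scale over the controls (edgeR, adjusted p = 0.0433). Here the call was lost without any 1 of the 3 DMSO libraries (adjusted p = 0.0868, 0.207 and 0.115) or without TRULI name replicate 2 or 3 (adjusted p = 0.151 and 0.0828). By name the difference after withdrawal was −0.76 ± 1.17 (edgeR, adjusted p = 0.9998). Between TRULI withdrawn and TRULI at 5 d it was −3.15 ± 0.91 by name, just short of the threshold (edgeR, adjusted p = 0.0529), and −0.81 ± 1.13 by label (edgeR, adjusted p = 0.999).

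Ccne2, the second E-type cyclin, ranged less widely. It had 4.25, 3.21 and 1.48 CPM in DMSO at 5 d, 9.25 in the undisputed TRULI library, 5.74 and 2.57 in the labelled-TRULI, named-DMSO pair, 10.5 and 5.45 in the labelled-DMSO, named-TRULI pair and 3.99 and 6.47 after TRULI withdrawal. By name the groups at 5 d did not overlap, with a log2 fold change of 1.54 ± 0.54 that did not pass (SE, edgeR, adjusted p = 0.179), and by label it was 0.98 ± 0.75 (edgeR, adjusted p = 0.546). After withdrawal Ccne2 differed by −0.67 ± 0.77 by label and 0.30 ± 1.01 by name, and between TRULI withdrawn and TRULI at 5 d by −0.21 ± 0.93 and −0.73 ± 0.62 (edgeR, adjusted p from 0.438 to 0.9998). Ccne1 made up 81.9% and 86.0% of the summed E-cyclin FPKM in the labelled-DMSO, named-TRULI pair and 25.4% to 78.5% in the other libraries, where the sum was at most 10.5 FPKM. Both of those upper values are from TRULI replicate 1 at 5 d by label, in which the effective length of Ccne1 was 545 bases. With 1 length per gene that library had a share of 56.6% and a sum of 5.19 FPKM, and the highest share and sum among those 8 libraries were 72.3% and 7.56 FPKM, in different libraries.

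Cdk2, the kinase of the E-type cyclins, had 23.95, 22.2 and 17.8 CPM in DMSO at 5 d and 11.3 CPM in the undisputed TRULI library. It had 7.66 and 1.47 CPM in the labelled-TRULI, named-DMSO pair, 32.7 and 24.1 in the labelled-DMSO, named-TRULI pair and 9.80 and 10.01 after TRULI withdrawal. It was the only 1 of the 10 genes whose levels separated the 4 libraries of low mitochondrial share from the other 6, at 1.47 to 10.01 against 11.3 to 32.7 CPM. Of 9898 protein-coding genes with a mean of at least 5 CPM, 10.7% lay below in this way and 16.1% above.

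By label Cdk2 was separated and lower with TRULI in both comparisons with DMSO, with log2 fold changes of −1.63 ± 0.65 at 5 d and −1.58 ± 0.53 after withdrawal that did not pass (SE, edgeR, adjusted p = 0.351 and 0.128). By name the differences were 0.12 ± 0.38 at 5 d and 1.07 ± 0.99 after withdrawal (edgeR, adjusted p = 0.920 and 0.9998). Against TRULI at 5 d, withdrawn TRULI differed by 0.49 ± 0.93 by label and by −1.24 ± 0.54 by name (edgeR, adjusted p = 0.999 and 0.149). The 5′ end of Cdk2 overlaps the pigment-cell gene Pmel on the other strand, which had 0.366 to 14.3 CPM, and counts of overlapping transcripts are uncertain where strand was not used.

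Rb1, whose product restrains E2F factors, had the smallest ratio of highest to lowest CPM among the 10 genes. Its level was 150.3, 116 and 145 CPM in DMSO at 5 d, 144.7 in the undisputed TRULI library, 173 and 121 in the labelled-TRULI, named-DMSO pair, 116 and 65.2 in the labelled-DMSO, named-TRULI pair and 120.1 and 136 after TRULI withdrawal. All values but the 65.2 CPM of 1 library of the labelled-DMSO, named-TRULI pair lay between 116 and 173 CPM. No difference passed the test. At 5 d the log2 fold changes were 0.08 ± 0.31 by label and −0.31 ± 0.29 by name, after withdrawal 0.43 ± 0.41 and −0.21 ± 0.41, and between TRULI withdrawn and TRULI at 5 d −0.22 ± 0.44 and 0.19 ± 0.37 (SE, edgeR, adjusted p from 0.544 to 0.9998). By label the withdrawal groups did not overlap, with the higher values after TRULI.

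E2f1, the founding member of the E2F family and itself an E2F target, was lowest in the controls at 5 d. The 3 DMSO libraries at 5 d had 2, 2 and 7 counts, which is 0.773, 0.643 and 1.73 CPM. The undisputed TRULI library had 3.86 CPM, the labelled-TRULI, named-DMSO pair 12.4 and 11.4, the labelled-DMSO, named-TRULI pair 11.7 and 10.2 and the libraries after TRULI withdrawal 12.3 and 7.72 CPM. Every library other than DMSO at 5 d was therefore above these controls, whichever grouping is used, and the 6 libraries beyond the undisputed TRULI library lay close together.

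The difference of E2f1 at 5 d was accordingly similar under both groupings, 9.22 ± 4.68 CPM by label and 8.59 ± 4.17 by name against 1.05 ± 0.59 with DMSO (SD, n = 3 each). By label the log2 fold change of 3.03 ± 0.77 did not pass (SE, edgeR, adjusted p = 0.323), whereas it passed in DESeq2 (3.08, adjusted p = 0.0367) and without the undisputed TRULI library (3.35, edgeR, adjusted p = 0.0157). By name E2f1 rose by 2.96 ± 0.64 (edgeR, adjusted p = 0.0340). This call was lost without any 1 of the 3 DMSO libraries (adjusted p = 0.0907, 0.168 and 0.0748) or without TRULI name replicate 2 or 3 (adjusted p = 0.135 and 0.0705). After withdrawal the difference was −0.19 ± 0.63 by label and −0.25 ± 0.76 by name (edgeR, adjusted p = 0.880 and 0.9998), with DMSO withdrawal at 10.96 ± 1.04 CPM by label and 11.9 ± 0.77 by name and TRULI withdrawal at 10.03 ± 3.27 (SD, n = 2 each). From TRULI at 5 d to TRULI withdrawn it was 0.10 ± 0.80 and 0.17 ± 0.62 (edgeR, adjusted p = 0.999 and 0.871).

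**Figure D4:**
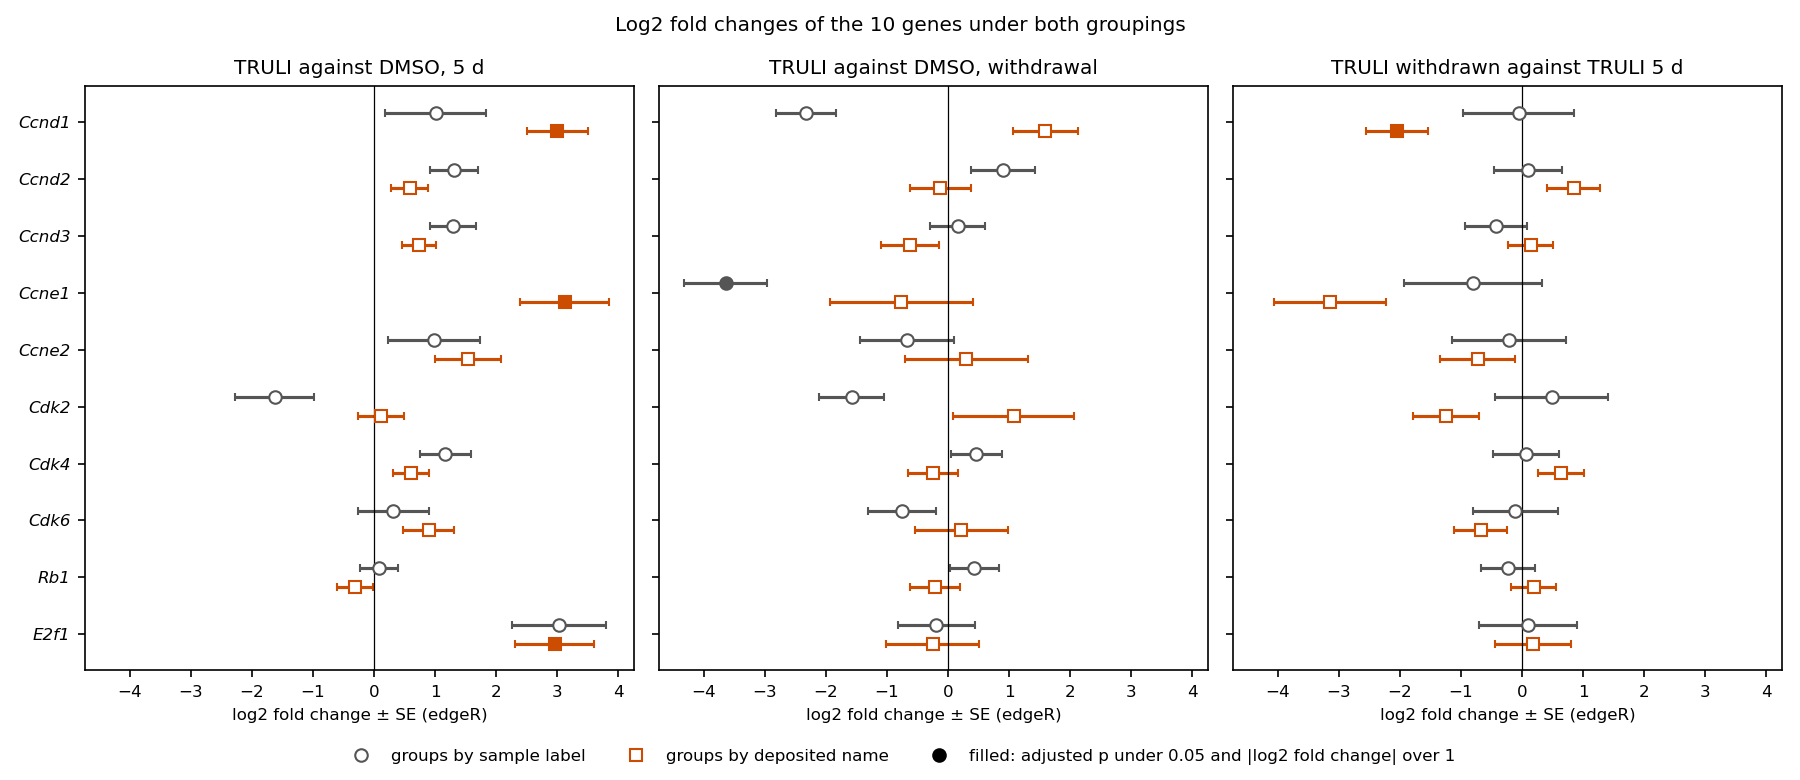
Log2 fold change of each of the 10 genes with its SE from edgeR in 3 comparisons, with groups by sample label (circles) and by deposited name (squares). Filled symbols passed the test. Those are Ccnd1, Ccne1 and E2f1 at 5 d by name, Ccne1 after withdrawal by label and Ccnd1 between TRULI withdrawn and TRULI at 5 d by name. Ccne1 at 5 d by label did not pass the filter on low counts and is not shown.

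Counted over the set, a gene was called when it was protein-coding, had an adjusted p under 0.05 and differed by more than 1 on the log2 scale. At 5 d by label 9 of the 10 genes were tested and edgeR called 0 higher, against 0.00945% of 10580 genes tested, and 0 lower, against 0%. Of the 9, 5 had an unadjusted p under 0.05, against 13.7% of all genes, and DESeq2 called 1 higher, E2f1, against 1.37% of the genes it tested, and 0 lower, against 0.396%. The libraries were separated for 3 genes with TRULI higher (Ccnd2, Ccnd3 and E2f1) and 1 lower (Cdk2), against 8.55% and 9.71% of all genes. Without the undisputed TRULI library edgeR called 4 higher (Ccnd2, Ccnd3, Cdk4 and E2f1), against 10.5% of all genes, and 1 lower (Cdk2), against 8.17%, and Ccnd1 then had a log2 fold change of −0.67. By name all 10 were tested and 3 were called higher (Ccnd1, Ccne1 and E2f1), against 2.09% of 10984 genes, and 0 lower, against 0.992%. The replicate block and DESeq2 each called the same 3 higher, against 4.19% and 2.62%, and 0 lower, against 1.93% and 1.26%. Separated were 5 higher, against 10.5%, and 0 lower, against 11%. The median log2 fold change of the genes tested was 1.01 by label and 0.82 by name, and that of all genes tested 0.04 and 0.02.

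After withdrawal 10 genes were tested under both groupings. By label 1 was called lower, Ccne1, against 1.06% of 11469 genes, and 0 higher, against 0.985%. The replicate block called 2 lower (Ccnd1 and Ccne1), against 4.48%, and 0 higher, against 6.01%, and DESeq2 called the same 2 lower, against 3.76%, and 0 higher, against 5.46%. Without TRULI replicate 1 edgeR called Ccnd1, Ccne1 and Cdk2 lower, against 13% of all genes, and Ccnd2 higher, against 11.5%. Without TRULI replicate 2 it called the same 3 lower, against 8.38%, and 0 higher, against 9.93%. Separated were 4 lower (Ccnd1, Ccne1, Cdk2 and Cdk6), against 28.8%, and 1 higher (Rb1), against 29.3%. By name edgeR called 0 in either direction, against 0% of 10845 genes in each, with 1 gene at an unadjusted p under 0.05, against 4.52% of all genes, and 0 called by DESeq2, against 0.28% higher and 0.0615% lower. By name 2 were separated higher (Ccnd1 and Cdk2), against 15.2%, and 1 lower (Ccnd3), against 13.5%. The median log2 fold change of the 10 genes was −0.43 by label and −0.17 by name, and that of all genes 0.01 under each.

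Between TRULI withdrawn and TRULI at 5 d, which share libraries with the comparisons above, edgeR called 0 of the 10 genes by label, against 0% of 11444 genes, with 0 at an unadjusted p under 0.05, against 3.03%, 0 by DESeq2, against 0.0529% higher and 0.0132% lower, and 0 with the replicate block, against 0.122% and 0.00874%. None was separated by label, where 8.41% of all genes were separated higher and 7.6% lower. By name Ccnd1 was called lower, against 5.91% of 11648 genes, and 0 were called higher, against 8.16%. The replicate block called Ccnd1 lower, against 3.25%, and 0 higher, against 5.81%, and DESeq2 called Ccnd1 and Ccne1 lower, against 7.95%, and 0 higher, against 8.9%. Without TRULI withdrawal replicate 1 Ccnd2 was called higher, against 10.8% of all genes, beside Ccnd1 lower, against 9.18%. Without TRULI name replicate 1 Ccne1 was called lower, against 1.06%, and Ccnd1 was not. That fit, wherever it is given, holds the same 4 libraries as TRULI against DMSO after withdrawal by label and is the same test. By name 4 were separated lower (Ccnd1, Ccne1, Cdk2 and Cdk6), against 25.4%, and 0 higher, against 26%. The change in the TRULI effect from 5 d to withdrawal was tested as an interaction over all 10 libraries, and 0 of the 10 genes were called by either grouping, against 0% of 11918 genes, with 3 of the 10 at an unadjusted p under 0.05 by each, against 6.65% of all genes by label and 9.31% by name. For Ccne1 that change was −4.42 ± 1.04 by label and −3.91 ± 1.23 by name, and for E2f1 −3.22 ± 1.02 and −3.22 ± 0.94 (SE, edgeR, adjusted p from 0.383 to 0.649). Ccnd1 changed by −3.32 ± 1.23 and −1.41 ± 0.77 (edgeR, adjusted p = 0.653 and 0.578), and Ccnd3 by −1.12 ± 0.60 and −1.35 ± 0.51 (edgeR, adjusted p = 0.791 and 0.446). Beside Ccne1 and E2f1, the gene at an unadjusted p under 0.05 was Ccnd1 by label and Ccnd3 by name.

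The wider family of pocket proteins, E2F factors and their DP partners was tested as 11 genes. At 5 d 0 of 9 tested were called by either grouping, with the 2 largest differences in Rbl1, a relative of Rb1, at 3.64 ± 1.17 by label and 1.91 ± 0.58 by name, and in E2f2 at 2.20 ± 0.87 and 1.43 ± 0.52 (SE, edgeR, adjusted p from 0.118 to 0.347). Rbl1 had 122 CPM in TRULI replicate 1 at 5 d by label, 3.30 and 10.3 in the other 2 labelled TRULI libraries and 2.32 to 4.94 in DMSO, and without replicate 1 its difference by label was 0.98 ± 0.79 (edgeR, adjusted p = 0.665). The median was 0.06 by label and −0.06 by name. Without the undisputed TRULI library 2 rose by label, against 10.5% of all genes, and by name 1, 2 and 1 rose without DMSO replicate 1, TRULI name replicate 1 and TRULI name replicate 3, against 1.45%, 2.04% and 2.19%. After withdrawal by label 1 of 11 was called lower, against 1.06% of all genes. It was E2f8, an E2F that represses and is induced in S phase. E2f8 had 0 counts in both libraries after TRULI withdrawal and 10.3 and 12.7 CPM in the labelled-DMSO, named-TRULI pair, which makes it at least 19.6-fold lower against a floor of 3 counts per library (edgeR, adjusted p = 0.0425). It was at 0 in all 3 DMSO libraries at 5 d and in the labelled-TRULI, named-DMSO pair, and at 1.29 CPM in the undisputed TRULI library. By name 0 of 9 were called after withdrawal, with the largest values in Rbl1 at −4.81 ± 1.68 and Tfdp2 at 2.08 ± 0.81 (edgeR, adjusted p = 0.970 and 0.9998). The library with 122 CPM of Rbl1 is DMSO replicate 1 there, and without it Rbl1 differed by −0.61 ± 2.33 (edgeR, adjusted p = 0.974). The family's medians were −1.29 by label and −0.87 by name.

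Between TRULI withdrawn and TRULI at 5 d, 0 of 9 were called by label, with Rbl1 at −4.36 ± 1.80 and Tfdp2 at 1.84 ± 0.73 (SE, edgeR, adjusted p = 0.999 for each). Without TRULI replicate 1 at 5 d Rbl1 was at −1.71 ± 1.72 (edgeR, adjusted p = 0.9998). By name 3 of 11 were called lower, against 5.91% of all genes. These were E2f8, at least 13.8-fold, E2f6 at −1.74 ± 0.44 and Rbl2, the pocket protein of resting cells, at −1.31 ± 0.33 (edgeR, adjusted p = 0.0284, 0.0366 and 0.0370). The medians were −0.58 by label and −1.25 by name. The family's calls moved with single libraries. After withdrawal by label there were 0 lower without either DMSO library, against 0.0416% and 0.0578% of all genes, and 6 and 2 without TRULI replicates 1 and 2, against 13% and 8.38%. Between TRULI withdrawn and TRULI at 5 d by name there were 1, 0 and 0 lower without name replicates 1, 2 and 3 of TRULI at 5 d, against 1.06%, 0.035% and 1.71%, and 1 without TRULI withdrawal replicate 2, against 5.54%. Where edgeR called 0, the genes at an unadjusted p under 0.05 were 2 and 4 at 5 d by label and by name. They were 2 after withdrawal by name and 3 in the last comparison by label. Of all genes, 13.7%, 16.4%, 4.52% and 3.03% had such a p. DESeq2 called 1 and 2 higher at 5 d, against 1.37% and 2.62% of the genes it tested, and 0 lower, against 0.396% and 1.26%. It called 0 after withdrawal by name, against 0.28% higher and 0.0615% lower, and 0 in the last comparison by label, against 0.0529% and 0.0132%.

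Among 7 inhibitors of cyclin-dependent kinases, Cdkn1c (p57) rose at 5 d by name, by 2.76 ± 0.63 (SE, edgeR, adjusted p = 0.0407), from 7.46 ± 4.90 to 49.6 ± 36.8 CPM (SD, n = 3 each). It was the 1 of 5 tested that was called, against 2.09% of all genes, and it was lost without DMSO replicate 2 or 3 or TRULI name replicate 2. By label 0 of 5 were called at 5 d, with Cdkn1c at 2.17 ± 1.18 and Cdkn1b (p27), an inhibitor of Cdk2 complexes, at −1.40 ± 0.99 (edgeR, adjusted p = 0.428 and 0.518). After withdrawal 0 of 6 by label and 0 of 5 by name were called. The largest by label were Cdkn2c (p18), at 0.181 and 0 CPM against 7.40 and 5.45, and Cdkn1b at −2.85 ± 0.72 (edgeR, adjusted p = 0.0627 and 0.0766), and by name Cdkn1c at 1.46 ± 0.86 and Cdkn2b at −0.89 ± 1.17 (edgeR, adjusted p = 0.9998 for each).

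Cdkn1b fell from TRULI at 5 d to TRULI withdrawn by name, with a log2 fold change of −2.90 ± 0.57 (SE, edgeR, adjusted p = 0.0199), the 1 of 6 tested that was called, against 5.91% of all genes, and not without TRULI name replicate 1 or 2. By label 0 of 5 were called, with Cdkn1b at −1.68 ± 1.45 and Cdkn1c at −1.57 ± 1.30 (edgeR, adjusted p = 0.999 for each). The level of Cdkn1b was 14.5 to 25.2 CPM in the 6 libraries of high mitochondrial share and 0.366 to 3.08 in the other 4. The medians of the inhibitors were 0.66 by label and 0.73 by name at 5 d, −0.76 and 0.34 after withdrawal and −0.67 and −1.20 between TRULI withdrawn and TRULI at 5 d. Where edgeR called 0, the inhibitors at an unadjusted p under 0.05 were 1 at 5 d by label and 4 and 0 after withdrawal by label and by name. They were 0 in the last comparison by label. Of all genes, 13.7%, 24.6%, 4.52% and 3.03% had such a p. DESeq2 called 2 lower after withdrawal by label, against 3.76% of the genes it tested, and 0 higher, against 5.46%. It called 0 at 5 d by label, against 1.37% higher and 0.396% lower. After withdrawal by name it called 0, against 0.28% and 0.0615%, and 0 in the last comparison by label, against 0.0529% and 0.0132%. By label 1 fell at 5 d without the undisputed TRULI library, against 8.17% of all genes, and 2 and 3 fell after withdrawal without TRULI replicates 1 and 2, against 13% and 8.38%.

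Of 10 regulators of these kinases, Cks1b, a subunit that docks cyclin-dependent kinases to substrates, rose at 5 d by name from 3.70 ± 0.41 to 13.8 ± 3.11 CPM (SD, n = 3 each), by 1.91 ± 0.41 on the log2 scale (edgeR, adjusted p = 0.0319). It was the 1 of 10 called, against 2.09% of all genes, and was not called without any 1 of the 3 DMSO libraries or without TRULI name replicate 2. By label 0 of 9 were called at 5 d, with Cks1b at 0.95 ± 0.63 and Fbxw7 at 0.89 ± 0.48 (edgeR, adjusted p = 0.494 and 0.426). Fbxw7, which directs cyclin E to degradation, rose by 1.26 ± 0.30 from TRULI at 5 d to TRULI withdrawn by name (edgeR, adjusted p = 0.0328). It was the 1 of 10 called, close to the 8.16% of all genes called higher there, and was not called without any of the TRULI libraries at 5 d or TRULI withdrawal replicate 1. In no other comparison was a regulator called. The largest values were Skp2 at −1.66 ± 0.62 and Fbxw7 at 1.17 ± 0.38 after withdrawal by label, Ccnh at −1.76 ± 0.66 and Fbxo31 at 0.90 ± 1.20 after withdrawal by name, and Ccnh at −1.52 ± 0.67 and Skp2 at −0.52 ± 0.86 between TRULI withdrawn and TRULI at 5 d by label (edgeR, adjusted p from 0.123 to 0.9998). The medians of the regulators were 0.39 and 0.34 at 5 d, −0.72 and 0.09 after withdrawal and −0.03 and −0.52 in the last comparison, by label and by name. Where edgeR called 0, the regulators at an unadjusted p under 0.05 were 1 at 5 d by label and 3 and 1 after withdrawal by label and by name. They were 0 in the last comparison by label. Of all genes, 13.7%, 24.6%, 4.52% and 3.03% had such a p. DESeq2 called 0 in each, where it called 1.37%, 5.46%, 0.28% and 0.0529% of the genes it tested higher. It called 0.396%, 3.76%, 0.0615% and 0.0132% lower. By label 1 rose at 5 d without the undisputed TRULI library, against 10.5% of all genes, and 1 after withdrawal without TRULI replicate 2, against 9.93%.

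The genes that E2F factors switch on at the G1/S boundary, 24 in number, were highest where Ccnd1 and Ccne1 were highest. Their summed level was 189 to 250.4 CPM in DMSO at 5 d, 223 and 299 in the labelled-TRULI, named-DMSO pair, 338 in the undisputed TRULI library, 922 and 670.3 in the labelled-DMSO, named-TRULI pair and 261 and 364 after TRULI withdrawal. E2f1 itself was at 7.72 to 12.4 CPM in 6 of these libraries, those of low and those of high sums alike. By name 10 of 23 tested rose at 5 d, against 2.09% of all genes, and 0 fell, against 0.992%, with a median of 1.68 beside 0.02 for all genes. Mcm3 and Mcm7, which encode parts of the replicative helicase, rose by 3.55 ± 0.52 and 2.72 ± 0.46, Ccna2, the S-phase cyclin, by 3.98 ± 0.60 and Rrm2, a subunit of ribonucleotide reductase, by 4.54 ± 0.78 (SE, edgeR, adjusted p = 0.00703, 0.0120, 0.00765 and 0.0132). The count was 6, 1 and 3 without DMSO replicates 1, 2 and 3 and 4 without TRULI name replicate 2, against 1.45%, 0.34%, 0.88% and 0.919% of all genes. By label 0 of 17 tested were called at 5 d, with Ung at 1.74 ± 0.67 and Mcm7 at 1.70 ± 0.44 (edgeR, adjusted p = 0.342 and 0.323) and a median of 0.46. At an unadjusted p under 0.05 were 2, against 13.7% of all genes, DESeq2 called 1 higher, against 1.37%, and without the undisputed TRULI library 2 rose, against 10.5%.

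After withdrawal 5 of 24 fell by label, against 1.06% of all genes, and 0 rose, against 0.985%, with a median of −2.62. The log2 fold changes were −5.56 ± 0.72 for Ccna2, −5.16 ± 0.84 for Rrm1, −3.53 ± 0.62 for Uhrf1, which keeps DNA methylation through replication, and −5.82 ± 1.01 for Rrm2 (SE, edgeR, adjusted p = 0.0312, 0.0425, 0.0442 and 0.0442). The count was 0 without either DMSO library, against 0.0416% and 0.0578% of all genes, and 15 and 13 without TRULI replicates 1 and 2, against 13% and 8.38%. By name 0 of 16 were called and the median was 0.05, with Mcm2 at −2.88 ± 1.28 and Prim1 at 1.97 ± 1.53 (edgeR, adjusted p = 0.9998 for each). There 1 gene had an unadjusted p under 0.05, against 4.52% of all genes, and DESeq2 called 0, against 0.28% higher and 0.0615% lower. Between TRULI withdrawn and TRULI at 5 d 0 of 19 were called by label, with Rrm1 at −3.07 ± 1.36 and Mcm2 at −2.97 ± 1.19 (edgeR, adjusted p = 0.999 for each) and a median of −0.31. There 2 genes had an unadjusted p under 0.05, against 3.03% of all genes, and DESeq2 called 0, against 0.0529% higher and 0.0132% lower. By name 9 of 24 fell, against 5.91% of all genes, and 0 rose, against 8.16%, with a median of −2.22. The log2 fold changes were −5.18 ± 0.80 for Ccna2, −4.90 ± 0.79 for Rrm1, −3.61 ± 0.73 for Mcm6 and −4.04 ± 0.84 for Mcm2 (SE, edgeR, adjusted p = 0.0128, 0.0135, 0.0207 and 0.0228). Without name replicates 1, 2 and 3 of TRULI at 5 d the count was 5, 0 and 2, against 1.06%, 0.035% and 1.71% of all genes, and without TRULI withdrawal replicate 2 it was 5, against 5.54%.

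**Figure D5:**
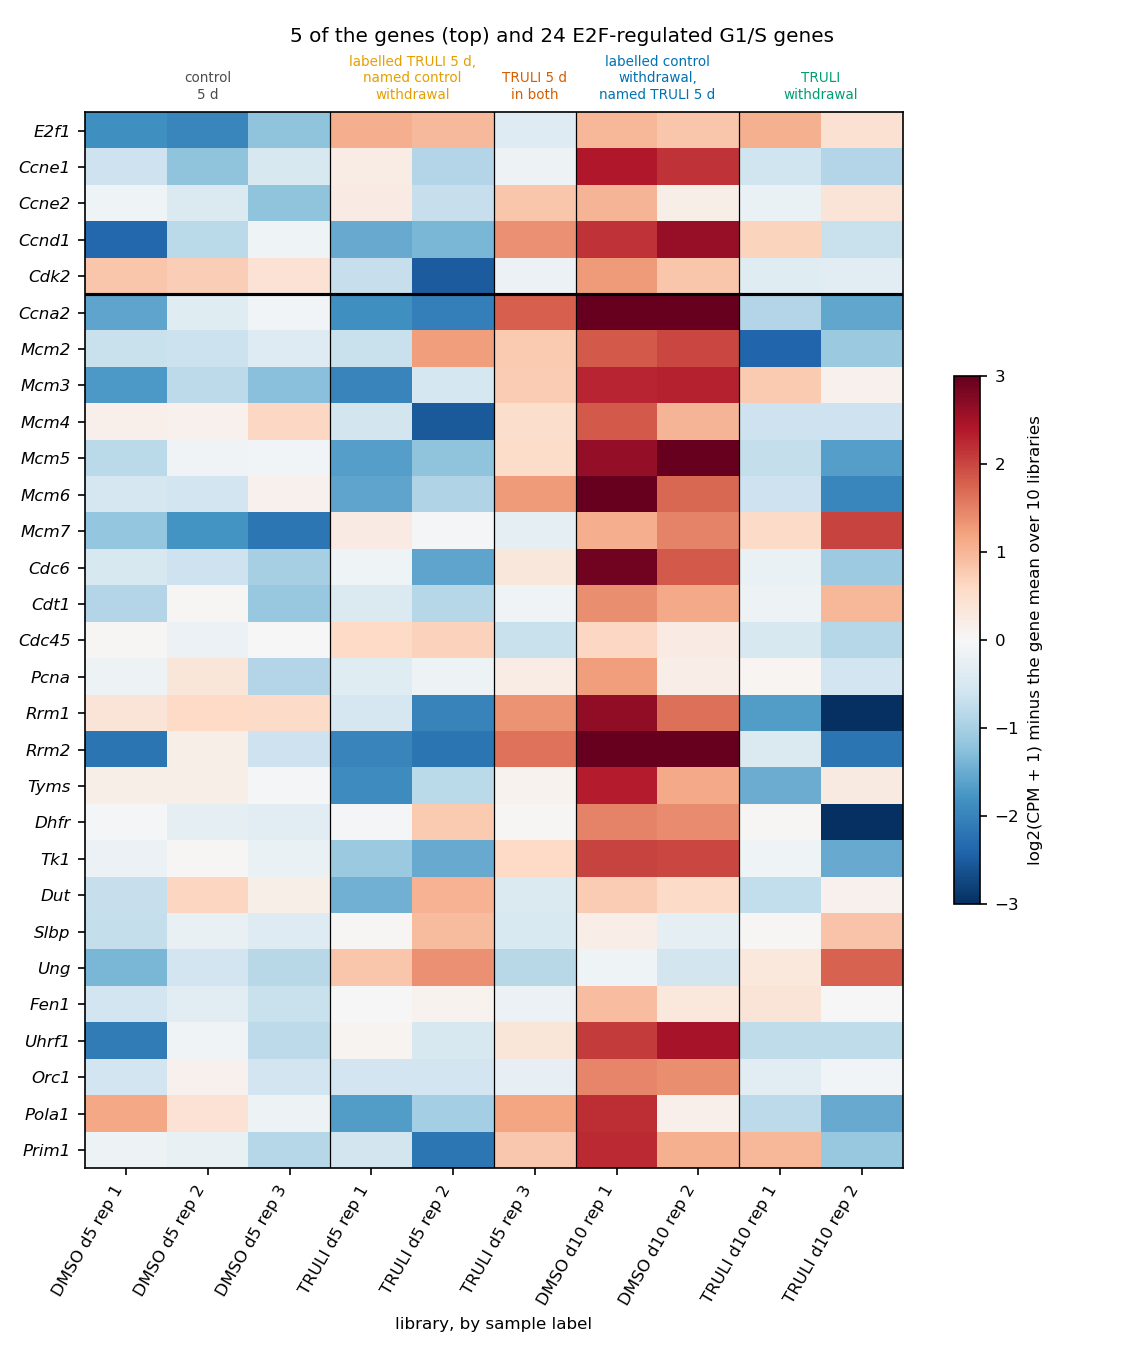
Levels of 5 of the genes (top) and of 24 E2F-regulated G1/S genes in each library, as log2(CPM + 1) minus the mean of the gene over the 10 libraries, with colours capped at 3 units either way. Columns are libraries by sample label, grouped by label and deposited name. The labelled-DMSO, named-TRULI pair is the darkest red in most rows, and E2f1 is lowest in the 3 DMSO libraries at 5 d.

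The genes most like each of the 10 in pattern were sought by the Pearson r of log2 CPM over the 10 libraries among about 8160 genes with at least 10 counts in every library. Ccnd1 was followed by Anxa6, Aars and Flna (r = 0.92 for each), and Ccne1 by Sipa1l1, Zfp367 and Nav2 (r = 0.93, 0.92 and 0.89). Ccnd2 was followed by Slc2a1, Fscn1 and Fndc10 (r = 0.97, 0.96 and 0.96) and Ccnd3 by Ptprs, Ruvbl2 and Ccnd2 (r = 0.98, 0.97 and 0.95). For Cdk4 the closest were Fam3a, Cdc42ep4 and Pef1 (r = 0.98 for each), and for Cdk2 Akr1b3, Abcf1 and Kcnq1 (r = 0.97, 0.95 and 0.95). Cdk6 was nearest to Ipmk, Afap1l2 and Sdc3 (r = 0.96, 0.89 and 0.88), Ccne2 to Stc1, Agbl2 and Nrp2 (r = 0.83, 0.83 and 0.82), Rb1 to Supt7l, Mxd1 and Kmt5b (r = 0.91, 0.89 and 0.86) and E2f1 to Ocrl, Irf2bp2 and Plekha1 (r = 0.95, 0.95 and 0.91). These values describe 10 libraries that share conditions, depth and mitochondrial share, and Ccne1, Ccne2, Cdk2 and E2f1 themselves had under 10 counts in some library.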

How the data were processed

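RNA of sorted utricular supporting cells was sequenced in 10 libraries. The authors mapped reads to GRCm38/mm10 with STAR and deposited 1 table a library of expected counts and effective lengths per gene, without normalization. The counting program is not given in the sources used here. The methods name a QIAseq single-cell RNA kit, whereas the labels describe poly(A) selection with an Illumina kit. Of 48709 genes, 48349 matched GENCODE M21 and 21695 were protein-coding.

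For each comparison the expected counts of its groups were rounded, filtered (filterByExpr), scaled by TMM and fitted in edgeR 4.0.16 under R 4.3.3, whose quasi-likelihood p was adjusted over every gene tested (Benjamini-Hochberg). A call needed that value to be under 0.05 and the log2 fold change to exceed 1 either way. CPM use TMM factors over all 10 libraries, and FPKM the effective length of each library and the protein-coding total. Groups came from the sample labels and, as an alternative, from the deposited names. The other alternatives were DESeq2 1.42.0, its size factors within edgeR, the replicate number as a block, a single fit of all libraries, omission of the filter, of the fold limit or of mitochondrially encoded genes, and omission of each library in turn. The code was tested on simulated counts. The study's methods call the replicates biological.

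The 10 genes, the 4 lists beside them and the markers were chosen with earlier results of these data known. Named were all 10 genes, from each list and comparison up to 4 called genes of lowest p or else the 2 of largest fold change, and the 3 genes most alike in pattern. At 5 d by name, the deviations of same-numbered libraries from their group means correlated at r = 0.33, 0.15 and 0.27. Such deviations cancel within a small group, which ties the correlations to each other, so pairing was not shown. The labels do not say what a number shares. With the replicate number as a block, the total of genes called there went from 230 higher and 109 lower to 460 and 212, and Ccnd1, Ccne1 and E2f1 were called in both fits.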

Additional observations from a re-analysis of the deposited data

How the results depend on the processing

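At 5 d by label, the number of the 10 genes called higher was 0 in the fit reported and 1 (E2f1) with DESeq2 or without the filter on low counts, and 3 with groups by deposited name. Leaving out a library gave 0 to 4 higher and 0 to 1 lower, the highest counts coming without TRULI replicate 3, the undisputed library. Of all genes, those fits called 0% to 10.5% higher and 0% to 8.17% lower. After withdrawal by label, 1 was called lower, and 2 with the replicate block, with DESeq2 or without the filter (Ccnd1 beside Ccne1), 0 with all 10 libraries in the fit and 0 by name. Leaving out a library gave 0 to 3 lower and 0 to 1 higher. Of all genes, those fits called 0.0416% to 13% lower and 0% to 11.5% higher. From TRULI at 5 d to withdrawn TRULI, 0 were called by label and 1 lower by name, and leaving out a library gave 0 by label. At 5 d by name, 3 were called higher, and 1 with all 10 libraries in the fit and 0 to 3 without a library. The fits without a library called 0.34% to 2.19% of all genes higher. After withdrawal by name 0 were called throughout. From TRULI at 5 d to withdrawn TRULI by name, 1 was called lower, and 2 with DESeq2, without the filter or with all 10 libraries. Without a library 0 to 1 were lower, against 0.035% to 9.18% of all genes, and 0 to 1 higher, against 0.0437% to 10.8%. The cause was not tested. No called value changed sign, and 59 of 668 uncalled values did.

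Over all genes, the counts higher and lower at 5 d by label were 1 and 0, against 208 and 60 with DESeq2, 479 and 88 without the filter and 1139 and 883 without TRULI replicate 3. After withdrawal by label, 113 and 122 became 689 and 514 with the replicate block, 813 and 559 with DESeq2, 951 and 642 without the filter and 0 and 0 with all 10 libraries. By name at 5 d, 230 and 109 became 398 and 191 with DESeq2, 609 and 229 without the filter and 65 and 38 with all 10 libraries, and after withdrawal 0 and 0 became 41 and 9 with DESeq2 and 129 and 40 without the filter. From TRULI at 5 d to withdrawn TRULI, 0 and 0 by label became 14 and 1 with the block, 8 and 2 with DESeq2 and 40 and 12 without the filter, and 950 and 688 by name became 677 and 379 with the block, 1349 and 1204 with DESeq2 and 1528 and 1158 without the filter.

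Same-numbered libraries correlated at −0.12, 0.05 and −0.16 at 5 d by label and at 0.19 and 0.16 after withdrawal by label and by name. Between TRULI withdrawn and TRULI at 5 d they correlated at −0.04 and 0.24 by label and at 0.09 and −0.14 by name. Deviations cancel within such small groups, so these values show neither pairing nor its absence. Of the calls on the 10 genes, the replicate block added Ccnd1 after withdrawal by label and changed no other. At 2463872 to 6255149 counts a library, Ccne1, Ccne2, Cdk2 and E2f1 fell under 10 counts in at least 1 library, which limits the precision of their values.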

Other observations

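The effective length of Ccnd2, which in tables of this form is weighted over its transcripts, was 1481 to 2300 bases in the 4 libraries of low mitochondrial share and 2728 to 5528 in the other 6. Of 9898 protein-coding genes with a mean of at least 5 CPM, 4.14% had a length that was shorter in those 4 libraries in this way and 3.28% a longer one, and the other 9 genes of the G1 set were in neither class. Ccne1 had an effective length of 545 bases in the library labelled TRULI replicate 1 at 5 d and of 1305 to 1772 bases in the other 9. Rbl1, the relative of Rb1, had 122 CPM in the same library and 0 to 23.2 CPM in the others.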
